A study of Mus musculus with 7 samples.

Results

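The microRNAs (miRNAs) mmu-miR-10a-5p, mmu-miR-10b-5p, mmu-miR-99a-5p, mmu-miR-99b-5p, mmu-miR-100-5p, mmu-miR-125a-5p and mmu-miR-125b-5p, written below without mmu, the mark for mouse, were followed on 7 one-colour Agilent arrays of mouse CD4+ T cells. They were chosen by name, as 7 of the 1881 miRNA names on the array, as families with members linked to regulatory T cells. The cells came from lymph nodes that drain the affected tissue, and were purified by positive selection for CD4 on magnetic beads. The groups were EAM, a mouse model of myocarditis (4 arrays, cells taken 6 days after induction), and LAD, a mouse model of myocardial infarction (3 arrays, 3 days after induction). The days are those of the sample labels, and the series text gives them in the opposite order. Strain, age and sex of the mice, and whether each array holds 1 animal, are not given in the sources used here. P-values therefore measure the spread between these arrays, which may be technical. No untreated mice were measured. The EAM arrays lay in 1 column of the slide and the LAD arrays in the other, so model, day and slide column cannot be told apart.

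Regulatory T cells are the CD4+ T cells that restrain immune responses and depend on the transcription factor Foxp3. In mice miR-10a is enriched in them and is induced by retinoic acid, miR-99a represses the growth kinase mTOR and works with miR-150 in their differentiation, and miR-125a stabilises them by repressing effector T cell genes. miR-125b is known from human T cells as a miRNA of the naive state, and miR-10b, miR-99b and miR-100 are close relatives in sequence of these members. The arrays measured bulk CD4+ cells with no sort for Foxp3 or CD25. The share of regulatory T cells is therefore unknown, and in bulk RNA fewer cells of a type and less RNA per cell cannot be told apart.

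The mature sequences are shown because the 7 miRNAs fall into 3 seed families and some differ by a single base, which bears on what a probe can resolve. All 7 matched RefSeq (GRCm38.p6). Each is written 5′ to 3′ with the seed, bases 2 to 8, in capitals.
mmu-miR-10a-5p: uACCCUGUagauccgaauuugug
mmu-miR-10b-5p: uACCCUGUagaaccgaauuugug
mmu-miR-99a-5p: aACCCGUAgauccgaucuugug
mmu-miR-99b-5p: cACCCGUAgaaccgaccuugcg
mmu-miR-100-5p: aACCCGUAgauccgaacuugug
mmu-miR-125a-5p: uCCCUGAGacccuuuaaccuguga
mmu-miR-125b-5p: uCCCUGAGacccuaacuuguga
With positions counted from 1 at the 5′ end and the first-named miRNA's base first, miR-10a-5p and miR-10b-5p differ by U12A, and miR-99a-5p and miR-100-5p differ by U16A. miR-99a-5p and miR-99b-5p differ at 4 positions, A1C, U11A, U16C and U21C. The seed of miR-125a-5p and miR-125b-5p is shared by 3 more names on the array, miR-351-5p, miR-6367 and miR-6394, and none of these was detected on any array.

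On the plus strand of GRCm38.p6 the members lie at 8 loci. miR-10a-5p is at chr11:96317186-96317208, within Hoxb3, and miR-10b-5p is at chr2:74726074-74726096, within Hoxd3 and Hoxd4. The rest belong to 3 clusters, each with a miR-99 or miR-100 hairpin, a let-7 hairpin and a miR-125 hairpin. On chromosome 16, miR-99a-5p (chr16:77598940-77598961) comes first, with the let-7c-1 hairpin 721 bases on and the miR-125b-2 hairpin 47337 bases on, its mature miR-125b-5p at chr16:77646279-77646300. On chromosome 9, within the long noncoding RNA gene Mir100hg, miR-100-5p (chr9:41531437-41531458) is followed by let-7a-2 after 5291 bases and by miR-125b-1 after 50501 bases, with the second copy of miR-125b-5p at chr9:41581940-41581961. On chromosome 17, within Spaca6, miR-99b-5p (chr17:17830194-17830215), let-7e and miR-125a-5p (chr17:17830817-17830840) lie within 624 bases of each other, measured between hairpin starts. The array cannot say which copy gave the miR-125b-5p signal.

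**Figure D1:**
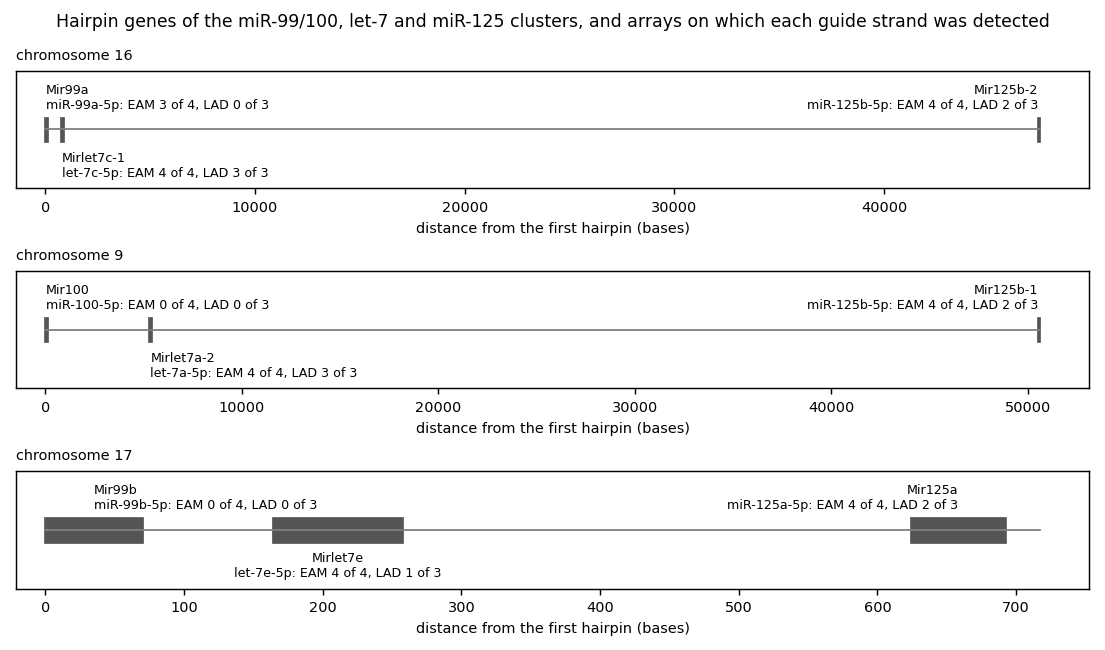
Hairpin genes of the 3 clusters, drawn by distance in bases from the first hairpin of each (x axes, a separate scale per cluster). Beside each gene is the number of EAM and LAD arrays on which its mature 5p miRNA was detected. miR-99a-5p was detected on 3 of 4 EAM and 0 of 3 LAD arrays, while miR-100-5p and miR-99b-5p were detected on none.

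Each member was read by 2 probes of 15 spots each that differ in length by 1 base. The probes of the members that results turn on are printed here, with the base that only the longer probe has in capitals.
miR-99a-5p probe: cacaagatcggatctacgG
miR-100-5p probe: cacaagttcggatctacgG
miR-125a-5p probe: tcacaggttaaagggtctC
miR-125b-5p probe: tcacaagttagggtctC
Each probe pairs with its miRNA from the 3′ end on and stops short of the 5′ end. The longer probe of miR-99a-5p pairs with bases 4 to 22 and that of miR-125b-5p with bases 6 to 22, so only 5 and 3 of the 7 seed bases are read. The longer probe of miR-99a-5p has 1 mismatch to miR-100-5p, and the longer probe of miR-10a-5p has 1 mismatch to miR-10b-5p. Whether these probes bind the near-identical miRNA was not tested, so the values of these pairs are uncertain as separate measurements.

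The members were near the lower limit of detection. By the scanner software's detection mark, 4 of the 7 were detected on 1 or more arrays and 0 on every array, beside 29.4% and 13.3% of all 1881 names. miR-125a-5p and miR-125b-5p were each detected on 4 of 4 EAM and 2 of 3 LAD arrays. miR-99a-5p was detected on 3 of 4 EAM and 0 of 3 LAD arrays, and miR-10a-5p on 1 EAM array alone. miR-10b-5p, miR-99b-5p and miR-100-5p were detected on none, and LAD array 3 detected no member. The arrays themselves differed in the same direction, with 445 to 471 miRNAs detected on the EAM arrays and 311 to 380 on the LAD arrays. The part of this gap in the members' detection was not tested.

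The total gene signal, the scanner software's background-subtracted intensity summed over a miRNA's probes and not scaled between arrays, shows how dim the members were. miR-125b-5p had 5.78, 6.71, 4.89 and 8.20 intensity units on the EAM arrays, against 2.55 and 2.70 on LAD arrays 1 and 2, with LAD array 3 not detected. miR-125a-5p had 4.17, 5.51, 3.71 and 3.94 in EAM, against 3.07 and 2.77 on LAD arrays 1 and 2, again with LAD array 3 not detected. Every detected EAM value of both miRNAs lay above the detected LAD values, on arrays not scaled to each other. The share of all names with that order in total gene signal was not counted. miR-99a-5p had 4.17, 4.29 and 5.53 on EAM arrays 1, 2 and 4, and miR-10a-5p had 3.12 on EAM array 4. The median of all detected miRNAs was 17.1 to 21.7 on the EAM arrays and 9.30 to 12.3 on the LAD arrays. Summed over the 7 members, total gene signal was 8.60 to 20.8 in EAM and 0 to 5.62 in LAD, which was at most 0.00811% of the signal of all miRNAs on any EAM array and at most 0.0180% on any LAD array.

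Spot by spot, miR-99a-5p stood above background in EAM and not in LAD. Of its 30 spots, 21, 28, 21 and 27 were marked as above background on EAM arrays 1 to 4, against 4, 4 and 1 on LAD arrays 1 to 3. The groups did not overlap, and the share of all names without overlap in marked spots was not counted. Of the 1000 negative-control spots of each array, 17.6% to 22.8% carried the same mark on the EAM arrays and 26.9% to 33.0% on the LAD arrays. In EAM the share of marked miR-99a-5p spots (70.0% to 93.3%) was thus above that of the negative controls, and in LAD (3.33% to 13.3%) it was below. miR-125a-5p had 24 to 26 marked spots of 30 in EAM and 22 to 28 in LAD. miR-125b-5p had 18 to 21 in EAM and 16 to 20 in LAD, so for both miR-125 members the groups overlapped. miR-10a-5p, with 17 to 23 in EAM and 13 to 20 in LAD, overlapped as well. The lack of overlap was not particular to miR-99a-5p, as it was shared by members that were detected on no array. miR-99b-5p had 15 to 18 marked spots in EAM and 3 to 10 in LAD, and miR-10b-5p had 9 to 13 and 5 to 7. miR-100-5p had 6 to 11 in EAM and 2 to 3 in LAD.

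The total gene signal of the detected members came from the longer probe. On each array that detected a member, its total gene signal was that of the longer probe alone, to within 0.001 intensity units. Over 7 members and 7 arrays, the longer probe was brighter than the shorter in 48 of 49 values, against 67.6% of the values of all 1493 miRNAs that have 2 probes 1 base apart, and 83.3% of those where the miRNA was detected. The exception was miR-100-5p, on 1 array. The shorter probe of miR-125a-5p had 11, 11, 9 and 11 of 15 spots marked as above background in EAM, against 13, 9 and 8 in LAD. That of miR-99a-5p had 6, 13, 6 and 12 in EAM, against 1, 0 and 0 in LAD. For miR-125b-5p the longer probe stood 20.02, 22.4, 16.4 and 29.8 intensity units above the median of the negative-control spots in EAM, against 9.46, 11.5 and 8.52 in LAD. The shorter probe, lacking 1 base, stood 1.49, 2.22, 1.59 and 2.24 above it in EAM, against -1.14, 0.19 and -1.30 in LAD. The shorter miR-125b-5p probe was thus near the negative controls on all 7 arrays, whose scaled median absolute deviation was 3.21 to 3.76 in EAM and 3.14 to 3.26 in LAD, and the longer one was above them on all 7.

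Measured by the longer probe alone, without scaling between arrays, miR-99a-5p stood 14.2, 15.6, 10.6 and 20.7 intensity units above the negative controls in EAM, against -0.38, 1.70 and -2.93 in LAD. All 4 EAM arrays were high, EAM array 3 included, and the 3 LAD arrays were at the level of the negative controls. The EAM mean was 15.3 ± 4.19 (SD, n = 4) and the LAD mean was -0.54 ± 2.32 (SD, n = 3). The two-sided exact permutation test over 35 splits gave p = 0.0571, the smallest p that 4 arrays against 3 allow, so this design cannot pass 0.05. All 7 members were compared in this way.
For miR-125a-5p the longer probe stood at 14.5, 19.4, 12.9 and 13.4 in EAM, against 12.02, 11.6 and 5.47 in LAD, where LAD array 3 was low. The groups did not overlap, with an EAM mean of 15.1 ± 2.98 (SD, n = 4) and a LAD mean of 9.71 ± 3.68 (SD, n = 3) (exact permutation p = 0.0571). For miR-10a-5p it stood at 5.38, 10.9, 9.24 and 11.3 in EAM, against 6.77, 4.01 and 1.59 in LAD. EAM array 1 lay below LAD array 1, so the groups overlapped (exact permutation p = 0.114). miR-10b-5p (2.53 to 5.19 in EAM, -1.10 to 0.035 in LAD), miR-99b-5p (5.42 to 6.85 in EAM, -0.95 to 0.65 in LAD) and miR-100-5p (0.77 to 4.03 in EAM, -2.55 to -0.98 in LAD), which were detected on no array, also had every EAM value above every LAD value.
In all, 6 of the 7 members had EAM above LAD with no overlap by this measure, as did 35.1% of all 1881 names. The other order occurred in 1.17% of all names, and the EAM arrays were brighter as a whole. The part of that brightness in the members' difference was not tested by this measure, and the normalized values follow.

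**Figure D2:**
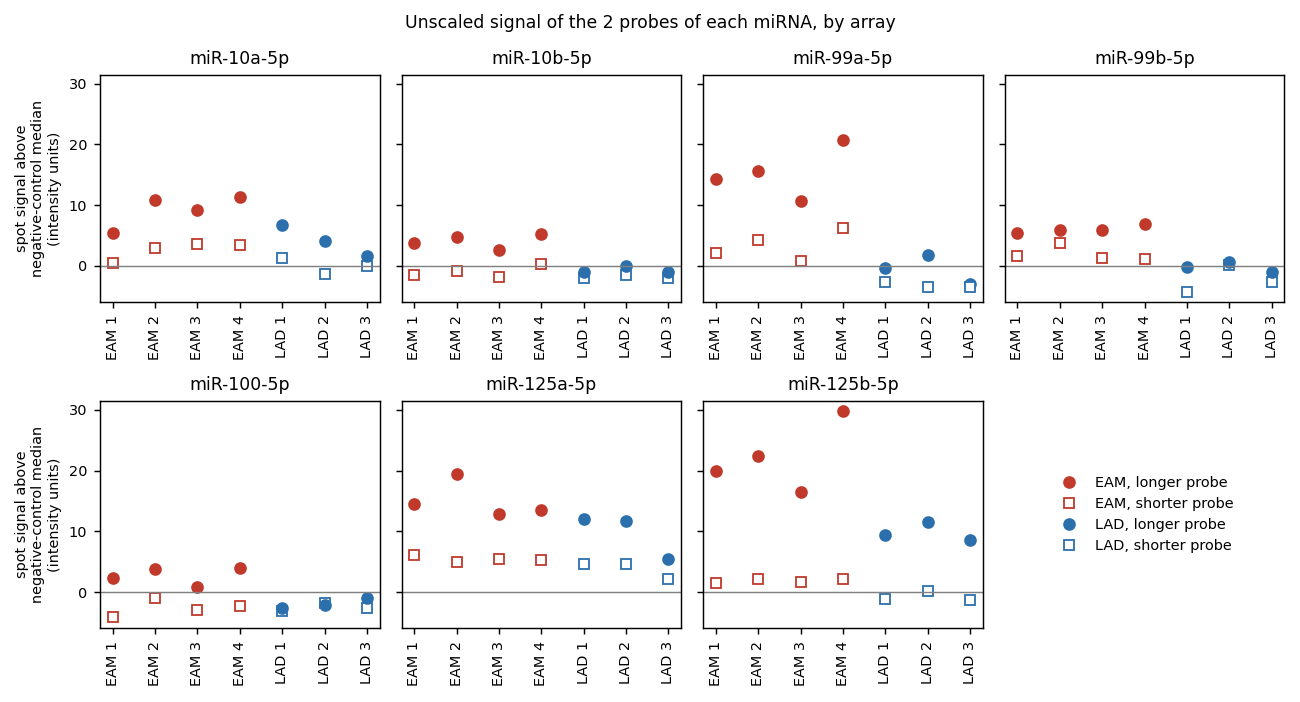
Spot signal above the median of the negative-control spots (y axis, intensity units, not scaled between arrays) for the longer probe (filled circles) and the shorter probe (open squares) of each miRNA on each array (x axis), EAM in red and LAD in blue. The longer probe of miR-99a-5p stood at 10.6 to 20.7 in EAM and -2.93 to 1.70 in LAD, and the shorter probe of miR-125b-5p stayed near 0 on all arrays.

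After background correction and quantile normalization, which sets all arrays to 1 distribution of signal, neither miR-125 member differed between the groups by the test. The limma test ran over the 423 miRNAs that all EAM arrays or all LAD arrays detected. Of these, 59.8% passed an adjusted p of 0.05, with 36.2% higher in EAM and 23.6% higher in LAD, and of the 2 members that entered it, 0 passed (0 of 2 also at an unadjusted p under 0.05). Both entered through the EAM arrays. For 0 of the 2 were the groups without overlap, beside 56.3% of the 423 (34% with EAM above LAD). miR-125a-5p had 4.71, 4.85, 4.82 and 4.78 (quantile-normalized signal, log2) in EAM, against 5.15, 4.95 and 4.81 in LAD. LAD arrays 1 and 2 were the highest and LAD array 3, where it was not detected, lay among the EAM arrays. The means were 4.79 ± 0.06 (SD, n = 4) in EAM and 4.97 ± 0.17 (n = 3) in LAD, a difference of -0.18 (EAM minus LAD, log2, standard error 0.13, limma adjusted p = 0.237). Without any 1 array it was -0.26 to -0.087, the smallest without LAD array 1, and did not pass.
miR-125b-5p had 4.70, 4.84, 4.78 and 4.96 in EAM, against 4.76, 4.78 and 4.78 in LAD. The LAD values lay within the range of the EAM values, and EAM array 4 was the highest of all. The means were 4.82 ± 0.11 (SD, n = 4) in EAM and 4.77 ± 0.01 (n = 3) in LAD, a difference of 0.05 (log2, standard error 0.11, limma adjusted p = 0.729).

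The direction of both miR-125 members depended on the scaling, since over the 423 tested miRNAs the median difference came to 0.31 (EAM minus LAD, log2) after quantile normalization and to 1.17 without scaling. Without scaling the difference of miR-125a-5p was 0.41 and that of miR-125b-5p was 0.62, and only the second passed (limma adjusted p = 0.0212). When each array was scaled by the 75th percentile of those probes that every array detected, they were -1.70 and -0.59, and both passed as higher in LAD (limma adjusted p = 0.0115 and 0.0408). Relative to the median of the tested miRNAs, both were below it in each of 11 sets of values, which differ in background correction, scaling or summary of the same spots, by a log2 distance of -0.49 and -0.27 with the normalization used here. These sets share the same 7 arrays.

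Within an array, the ratio of miR-125a-5p to miR-125b-5p does not depend on 1 factor common to both, although quantile normalization is no such factor and can move it. After quantile normalization its log2 value was 0.012, 0.014, 0.040 and -0.18 on the EAM arrays, against 0.38, 0.17 and 0.031 on the LAD arrays. EAM array 3 lay above LAD array 3, so the groups overlapped. In EAM the mean was -0.03 ± 0.10 (SD, n = 4), and in LAD it was 0.19 ± 0.18 (SD, n = 3). The difference was -0.22 (log2, two-sided exact permutation p = 0.114). Without scaling the ratio was 0.011, 0.013, 0.041 and -0.19 on the EAM arrays, against 0.32, 0.14 and 0.066 on the LAD arrays. There the groups did not overlap, and the difference of -0.21 had the smallest p that 4 against 3 arrays allow (two-sided exact permutation p = 0.0571). The share of other pairs of miRNAs without overlap was not counted. On LAD array 3 neither miRNA was detected, so its ratio is between values at background. With the brightest probe of each miRNA the difference was -0.23 (two-sided exact permutation p = 0.229). The size was not stable: over all alternatives tried it ranged from -1.11 with scaling by the detected probes' 75th percentile to -0.083 with local background correction, and it was -0.13 without LAD array 1. Of 8 planned pairs of members, this was the only 1 in which both members were detected on every array of a group.

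With quantile normalization miR-99a-5p had the largest difference of the 7 members, and it was higher in EAM. It did not enter the test above because EAM array 3 was not marked as detected. Its quantile-normalized log2 signal was 4.62, 4.78, 4.62 and 4.94 in EAM, against 4.32, 4.32 and 4.15 in LAD. All 4 EAM values lay above the 3 LAD values, as they did for 17.5% of all 1881 names, while 20.4% had the opposite order. The means were 4.74 ± 0.15 (SD, n = 4) in EAM and 4.26 ± 0.10 (n = 3) in LAD, a difference of 0.48 (log2). No LAD array detected miR-99a-5p, so each was taken at its own value or, if higher, at the lowest value of any detected miRNA there. By this the EAM level was 1.29-fold higher, which is no lower bound. EAM array 3, also not detected, entered at its own value. With local background correction the difference was 0.16 (log2).
A limma fit over the 553 miRNAs detected on at least 1 array gave an adjusted p of 0.0222 (standard error 0.12), but miR-99a-5p entered it through the EAM arrays alone, where it is high, so that fit does not test the difference. In it 57.5% of the 553 passed (32.2% higher in EAM). A fit over all 1881 names, with no detection filter, gave a standard error of 0.09 and an adjusted p of 0.0175, beside 23.7% of all names that passed (12.7% higher in EAM). In this unfiltered fit the difference was 0.16 to 2.30 over 11 sets of values, which share the same arrays. It did not pass by total gene signal (adjusted p = 0.390), where the LAD arrays are all listed at the value for not detected, or with the 75th percentile of the detected probes (adjusted p = 0.0685). The call ended without EAM array 2 or 4 or LAD array 1 or 3 (limma adjusted p = 0.0508, 0.0504, 0.0518 and 0.0513), while the difference stayed between 0.41 and 0.52 without any 1 array. Against the median of the tested miRNAs, which did not include miR-99a-5p, the difference was 0.17 higher. It was above that median in 8 of the 11 sets and below it in the other 3, by 0.17 without scaling. The median over all 1881 names was -0.036 after quantile normalization.

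The remaining members, all with values at or below detection, showed smaller differences in the normalized values. miR-10a-5p, detected on EAM array 4, had 4.44, 4.66, 4.69 and 4.69 in EAM, against 4.78, 4.50 and 4.50 in LAD, a difference of 0.02 (log2) with overlapping groups. EAM array 1 was the lowest and LAD array 1 the highest of all 7. miR-99b-5p had 4.47, 4.58, 4.52 and 4.51 in EAM, against 4.26, 4.42 and 4.27 in LAD, with no overlap. EAM lay above LAD without overlap for 17.5% of all 1881 names, and 20.4% had the opposite order. As miR-99b-5p was detected on no array, no fold is given for it. In the fit with no detection filter it had a difference of 0.20 (limma adjusted p = 0.0369), beside 23.7% of all names that passed (12.7% higher in EAM). The call of miR-99b-5p ended without any 1 array other than LAD array 2 (limma adjusted p of 0.0628 to 0.118). The 5 members other than miR-99a-5p and miR-99b-5p did not pass there. miR-10b-5p lay at 4.31 to 4.46 in EAM and 4.30 to 4.34 in LAD, and miR-100-5p at 4.21 to 4.38 in EAM and 4.22 to 4.26 in LAD, both overlapping.

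**Figure D3:**
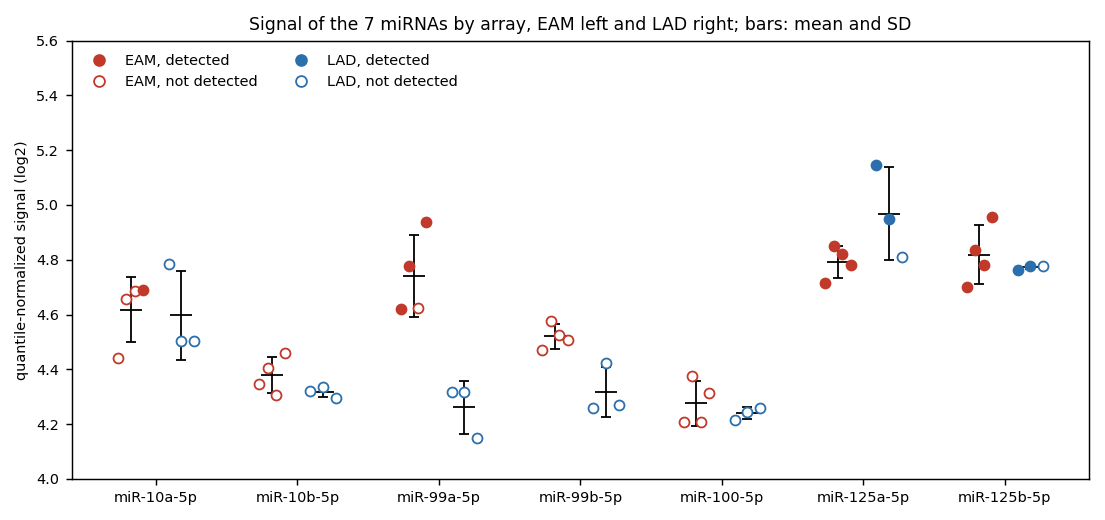
Quantile-normalized signal (y axis, log2) of the 7 miRNAs on each array, EAM left in red and LAD right in blue, filled where the miRNA was detected and open where it was not, with the mean and SD in black. All EAM values of miR-99a-5p (4.62 to 4.94) lay above its LAD values (4.15 to 4.32), while the groups overlapped for miR-125a-5p and miR-125b-5p.

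**Figure D4:**
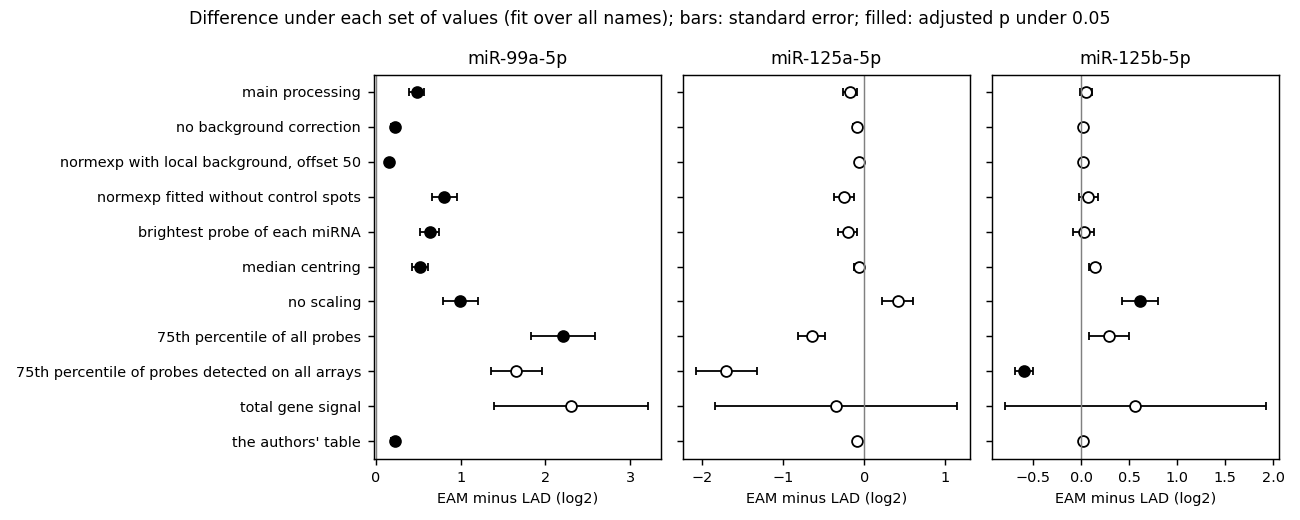
Difference in signal, EAM minus LAD (x axes, log2, with the standard error of the limma fit), of miR-99a-5p, miR-125a-5p and miR-125b-5p under 11 sets of values (y axis), in a fit over all names with no detection filter; filled points passed an adjusted p of 0.05. miR-99a-5p ranged from 0.16 to 2.30 and was not detected on any LAD array, while miR-125a-5p ranged from -1.70 to 0.41 and miR-125b-5p from -0.59 to 0.62.

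The other strands of the same hairpins were not detected. Of the 8 passenger arms of the members, from miR-10a-3p to miR-125b-2-3p, 0 were detected on any array. Their mean quantile-normalized signal was 4.09 to 4.60 (log2) in EAM and 4.09 to 4.33 in LAD. The differences ranged from -0.099 (miR-99a-3p) to 0.27 (miR-10a-3p and miR-125a-3p). The let-7 miRNAs of the 3 clusters were brighter, and they are also made from loci outside the clusters in the case of let-7a and let-7c. let-7c-5p, the neighbour of miR-99a on chromosome 16, averaged 10.89 ± 0.02 (SD of 4 arrays, log2) in EAM and 10.41 ± 0.35 (SD of 3 arrays) in LAD. The difference of 0.48 passed (standard error 0.17, limma adjusted p = 0.0427). That call ended without any 1 array other than LAD array 2, with adjusted p values of 0.0721 to 0.0987, and without LAD array 3 the difference was 0.29. let-7e-5p, between miR-99b and miR-125a, averaged 5.38 ± 0.20 in EAM and 4.91 ± 0.31 in LAD (difference 0.48, limma adjusted p = 0.0541). It was detected on 4 EAM arrays and on LAD array 2 alone in LAD, so it entered the test through the EAM arrays, where it is higher. Among the fits without 1 array, let-7e-5p passed only without LAD array 2 (0.64, limma adjusted p = 0.00638). It passed in 4 of the 11 sets of values. let-7a-5p averaged 12.35 ± 0.03 in EAM and 12.16 ± 0.21 in LAD (difference 0.19, limma adjusted p = 0.229). Without LAD array 2 that difference was 0.29 and passed (limma adjusted p = 0.0231), and without LAD array 3 it was 0.079. The 3p arms of these let-7 hairpins were detected on no array. Of the 3 tested let-7 neighbours 1 rose and 0 fell, beside 36.2% of all tested miRNAs higher in EAM, with a median difference of 0.48 beside 0.31 for all tested miRNAs.

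A further list of 12 miRNAs linked to regulatory T cells, miR-155-5p, miR-146a-5p and miR-150-5p among them, was placed beside the members. Of the 12, 10 were detected on at least 1 array and 9 were tested, of which 3 were higher in EAM, 0 were higher in LAD and 6 did not pass. That share lies near the 36.2% of all tested miRNAs that were higher in EAM. Their median difference was 0.46 beside 0.31 for all tested miRNAs. miR-146a-5p, which dampens NF-κB signals in T cells, averaged 9.21 ± 0.07 in EAM and 7.33 ± 1.25 in LAD (difference 1.88, limma adjusted p = 0.0204). miR-155-5p, which Foxp3 binds and which supports regulatory T cell fitness, averaged 9.62 ± 0.03 in EAM and 8.51 ± 0.81 in LAD (difference 1.12, limma adjusted p = 0.0264). miR-150-5p, the partner of miR-99a on mTOR, averaged 12.47 ± 0.05 in EAM and 11.06 ± 1.20 in LAD (difference 1.41, limma adjusted p = 0.0380). Each of the 3 was higher in EAM in 11 of 11 sets of values. The calls of miR-155-5p and miR-150-5p ended without LAD array 3 and without any 1 EAM array, and that of miR-146a-5p without LAD array 3 or EAM array 2, 3 or 4. The highest adjusted p values, each without LAD array 3, were 0.0863, 0.0894 and 0.0701 for miR-155-5p, miR-150-5p and miR-146a-5p. Without LAD array 2 the difference of miR-150-5p was 0.78. These 3 are also among the T cell markers below.

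By the size of the difference between centred log2 profiles over the 7 arrays, the miRNAs most like miR-125a-5p among the other 422 tested were miR-664-3p (root mean square difference 0.082), let-7a-1-3p (0.092) and miR-211-5p (0.10). Those most like miR-125b-5p were miR-26a-5p (0.074), miR-706 (0.074) and let-7f-5p (0.089). All 6 were detected on 4 of 4 EAM arrays, and let-7a-1-3p was the only one not detected on all 3 LAD arrays.

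Markers of T cells and of other cells were read beside these results. All 6 T cell markers were detected on all 7 arrays, and 4 of 6 passed as higher in EAM, beside 36.2% of all tested miRNAs. Besides the 3 named above, miR-142a-3p passed, and its call held in 1 of the 7 fits that left out 1 array. All 5 stromal markers (miR-143-3p, miR-145a-5p, miR-199a-5p, miR-199a-3p and miR-214-3p) were detected on no array. The epithelial markers moved in the same direction as miR-99a-5p. Of 7 such markers 5 were detected, and 4 of the 5 tested were higher in EAM (miR-200a-3p, miR-200b-3p, miR-141-3p and miR-203-3p), beside 36.2% of all tested miRNAs. All 5 entered the test through the EAM arrays, as at most 1 LAD array detected any of them, where the 4 that passed are higher. The calls of miR-200a-3p and miR-203-3p held when any 1 array was left out (limma adjusted p up to 0.0449), and those of miR-200b-3p and miR-141-3p held in 2 and 1 of these 7 fits. The epithelial markers' summed total gene signal, not scaled between arrays, was 56.7 to 89.0 intensity units in EAM and 0 to 10.3 in LAD. That was 0.0275% to 0.0347% of the signal of all miRNAs in EAM and 0% to 0.0122% in LAD. The T cell markers' sum was also higher in EAM, at 41698 to 57716 units against 2376 to 11077 in LAD. As a share it was 20.2% to 22.9% in EAM and 13.1% to 17.2% in LAD. Of the epithelial markers, miR-429-3p and miR-205-5p were detected on no array. Of the 2 myeloid markers, miR-223-3p was lower in EAM, at 6.59 ± 0.16 (log2, SD, n = 4) against 8.23 ± 0.83 (SD, n = 3) in LAD (limma adjusted p = 0.0127), and miR-223-5p was not detected. Of 3 red cell markers only miR-451a was detected, at 6.71 ± 0.27 in EAM and 6.84 ± 0.83 in LAD (limma adjusted p = 0.740). Of 2 endothelial markers miR-126a-3p was detected, on 3 EAM and 2 LAD arrays. The part of such cells in the members' values was not tested.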

How the data were processed

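Intensities of 58594 spots per array (56430 not controls, 4415 probes, 1881 names) and the other columns, marks of detection and spot quality, were deposited as written by Agilent Feature Extraction 10.7.3.1, unscaled, per the file headers. Per the labels, 100 ng of total RNA per array carried Cy3. The authors' deposited log2 values come with RMA named in the submitters' processing notes; they were close to quantile-normalized signal without background correction (r = 0.999 across names; 97.9% within 0.1).

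Mean spot signal was corrected with normexp (limma 3.58.1, R 4.3.3, data.table, version 1.17.8; fitted on all spots, foreground only), quantile normalized and log2 transformed. Spots, outliers left out, were summarised by their median and probes by median polish. The groups were compared with limma (lmFit, eBayes, Benjamini-Hochberg, threshold 0.05), single measures with two-sided exact permutation tests. Precision is limited by the 7 arrays. Alternatives covered background correction, scaling, summary, detection filter, variance model, a replicate block and leaving out each array. Members and lists were chosen with earlier results of these data known. Named were all members, detected partner arms, cluster mates and markers, regulatory T cell miRNAs that passed, and the 3 closest profiles per tested member. Replicate numbers were not shown to pair the arrays, as deviations of same-numbered arrays correlated at 0.20, -0.16 and -0.19. Same-numbered arrays did lie in the same row of the slide, so the replicate block is also a block by slide row.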

Additional observations from a re-analysis of the deposited data

Results flagged for a closer look

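miR-10a-5p in EAM held 1 array apart from the other 3. EAM array 1 had 4.44 (quantile-normalized signal, log2), against 4.66, 4.69 and 4.69 on EAM arrays 2, 3 and 4, and its gap to the nearest array was 0.871 of the whole range. The miRNA was detected on EAM array 4 alone. Such a gap can arise by chance, at a rate that was not computed here, and all 7 members were looked at.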

How the results depend on the processing

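The number of miRNAs past the threshold was 253 of 423 (153 higher in EAM, 100 in LAD). It was 135 over the miRNAs detected on all 7 arrays (52 and 83), 445 with no filter, 0 by an unmoderated unequal-variance test (120 at an unadjusted p under 0.05), and 59 to 379 without any 1 array, the lowest without EAM array 4 and the highest without LAD array 2. The split between EAM and LAD was 265 and 54 with median centring, 299 and 2 without scaling, and 77 and 117 with the 75th percentile over probes that every array detected. With the replicate block, which is also a block by slide row, the number past the threshold was 0 (180 at an unadjusted p under 0.05). The replicate numbers are not shown to pair the arrays.

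Of the 2 members tested 0 passed. That count was 1 without scaling (miR-125b-5p, toward EAM), where 301 of all 423 tested miRNAs passed. With scaling by all probes' 75th percentile it was 1 (miR-125a-5p, toward LAD), beside 303 of 423. Array weights, which did not converge fully, also gave 1 (miR-125a-5p, toward LAD), beside 347 of 423. It was 2 when scaled by the detected probes' 75th percentile, beside 194 of 423. With detection on at least 1 array it was 1 of 4, beside 57.5% of 553 miRNAs. With no filter it was 2 of 7, beside 23.7% of 1881 names. The members' count was 0 without any 1 array and with the replicate block. The difference of miR-125a-5p turned to 0.41 without scaling; that of miR-125b-5p turned to -0.59 by the detected probes' 75th percentile and to -0.0012 both with the replicate block and without EAM array 4 (-0.0012 to 0.084 without any 1 array). The cause was not tested. The ratio of the 2 lay between -1.11 and -0.083 in the 17 alternatives tried (-0.30 to -0.13 without any 1 array). Normexp fitted without control spots, the brightest probe, and the fits of the members with no filter under each set of values and without each array were chosen after seeing the data. Slide as a block could not be run, as all arrays lay on 1 slide. The members' low signal over background limits all values here.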
